A study of Mus musculus with 10 samples.

Results

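Accessible chromatin around 9 transcription factor genes of the prostate epithelium, Foxa1, Gata2, Gata3, Trp63, Sox9, Klf5, Grhl2, Elf3 and Ehf, was examined in Myc-CaP cells, a mouse prostate cancer line of male FVB/NJ origin. All regions that overlapped one of these genes (GENCODE M21, mm10) or the 20 kb on either side were taken, which gave 153 of 204075 regions in all. ATAC-seq, in which a transposase cuts and tags open DNA, had been run on 10 libraries in 5 groups of 2. Cells were left untreated (Ctrl) or treated for 48 h with a platinum drug at 2 µM, either oxaliplatin (Oxali) or cisplatin (Cispl), with interferon-γ (IFNγ), or with oxaliplatin and IFNγ together (Oxali + IFNγ, the combination). The labels give the IFNγ amount as 1000 pg and state no volume. The libraries of a group were pooled before regions were called, so each group is a single list with no spread between replicates and no test against such a spread was possible. The 95% intervals given here cover counting error only. All 4 treated lists were set against the same Ctrl list.

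The prostate gland is lined by luminal cells, which secrete and depend on the androgen receptor, over a layer of basal cells. Foxa1 is a pioneer factor that opens chromatin for the androgen receptor, Gata2 acts with that receptor at its enhancers, and Gata3 maintains luminal identity in several glands. Trp63 encodes p63, the defining regulator of basal cells, whereas Sox9 and Klf5 are linked to progenitor and basal states. Grhl2, a grainyhead factor of cell junction genes, and the ETS factors Elf3 and Ehf work in epithelial cells of both layers. Accordingly, Foxa1, Gata2 and Gata3 were grouped as luminal factors, Trp63, Sox9 and Klf5 as basal factors, and Grhl2, Elf3 and Ehf as factors of both layers.

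Regions were merged from intervals that had a q-value of at most 0.01 in any of the lists. A region counted as called in a list where that list held an overlapping interval of any strength. The level of a region is the number of overlapping fragment ends at its summit (pileup). It was recovered from the deposited statistics and scaled to the depth of the Ctrl list. The genome background, which is proportional to depth, was 12.1 in Ctrl and between 9.62 (IFNγ) and 13.8 (Cispl) in the treated lists. Markers of prostate cells were mixed. Of the luminal markers, Krt8 had a called region at a start site in Ctrl at a level of 1078 and Hoxb13 at 1139, while Krt18 was at 43 and Spdef at 35. Among 8 basal markers 5 had a start site region, but Krt5, Krt15 and Krt17 had none. Of 8 general epithelial genes 5 had a start site region in Ctrl, with Grhl1 at 2656, Ovol1 at 752, Elf5 at 174, Esrp1 at 93 and Ovol2 at 44, while Cdh1 and Grhl3 had none in any list and Epcam had a region of 30.3 with IFNγ only. Of markers of other cells, 1 of 5 neuroendocrine genes (Chga at 135), 1 of 2 endothelial genes (Pecam1 at 29) and 3 of 3 stromal genes (Pdgfra at 1358, Myh11 at 300 and Des at 36) had a start site region in Ctrl. Their part in the results was not tested.

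The 9 genes held 92 called regions in Ctrl and 84 in IFNγ, against 103 in Oxali, 119 in Cispl and 111 in the combination. The whole lists held 109756 called regions in Ctrl and 105568 in IFNγ, against 146532 in Oxali, 162307 in Cispl and 164168 in the combination. Of the 153 regions, 65 (42.5%) were present in all 5 lists, against 41.8% of all regions, and 39 (25.5%) were called in a single list, against 21.2%. By place, 52 lay in introns, 34 upstream, 33 downstream, 27 within 1 kb of an annotated start of the gene and 7 in exons. The median level in Ctrl was 97.5, close to the 95 of all regions, while 20.7% of the members reached 500 against 14.7% of all.

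In untreated cells the luminal genes were the most densely covered. Foxa1 had 25.9 called regions per 100 kb and Gata3 had 23.3, whereas Trp63 had 3.22. Gata2 stood apart from the other luminal genes with 7.53 per 100 kb, near Sox9 at 8.78 and Klf5 at 7.10. Grhl2 (15.2), Elf3 (15.6) and Ehf (12.5) lay in between. The luminal genes together kept about the same density in all lists, at 19.1 per 100 kb in Ctrl and in Oxali, 18.0 in IFNγ, 21.5 in Cispl and 19.7 in the combination. The basal genes had 4.57 in Ctrl and 3.71 in IFNγ, but 7.42 in Oxali and 8.28 in both Cispl and the combination. The basal density was thus higher in each of the 3 lists with platinum than in Ctrl, and lower with IFNγ alone. Trp63 contributed much of this, with 8 called regions in Ctrl and 5 in IFNγ, against 15 in Oxali and 16 in both Cispl and the combination. The whole lists with platinum were also longer than that of Ctrl, as given above.

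**Figure D1:**
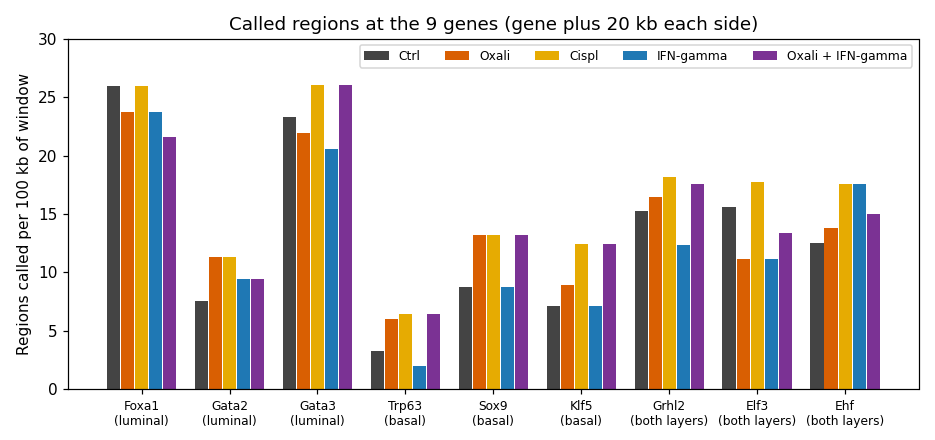
Called regions per 100 kb of window (the gene and 20 kb on each side) for the 9 genes, with 1 bar per list and the class of the gene in brackets. Foxa1 and Gata3 stand highest in every list, and Trp63 lowest, at 3.22 in Ctrl and 6.44 in Cispl.

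Many of the strong member regions lay at gene starts. Where 5 levels follow each other with no label, they stand in the order Ctrl, Oxali, Cispl, IFNγ, combination. The region of the highest level in Ctrl and in IFNγ was the Klf5 start, at chr14:99298185-99299618, with a level of 2221 in Ctrl, against 1620 in Oxali, 1640 in IFNγ, 1273 in Cispl and 1276 in the combination. In the 3 platinum lists the highest member region was instead a distal one at Foxa1, described below. The Sox9 start (chr11:112781040-112783179) had levels of 1526, 1083, 819, 1105 and 828. At both basal genes Ctrl was the highest list and the IFNγ and Oxali lists lay close to each other. Relative to Ctrl, the Sox9 start was at 0.71 with Oxali (95% interval 0.65 to 0.77) and 0.72 with IFNγ (0.67 to 0.79), and lower at 0.54 with Cispl (0.49 to 0.58) and 0.54 in the combination (0.50 to 0.59). The Klf5 start was at 0.73 with Oxali, 0.74 with IFNγ and 0.57 in each of the other lists. A noncoding gene, BC006965, starts at the same region as Sox9, so that the signal cannot be assigned to either. The same holds for start site regions of Gata3, where 9230102O04Rik shares 2 and Gm13256 shares 1, and of Grhl2, where Gm16136 shares 2.

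Trp63 differed from the other 8 genes in that no region lay within 1 kb of any of its 3 annotated starts in any list. The closest region to the outer start (chr16:25683763), which begins the long isoforms, was 9.40 kb away. At the inner start (chr16:25801916), 118 kb into the gene, from which the shorter isoform of basal cells is made, the closest region was 5.27 kb away. The highest Trp63 region in Ctrl lay in an intron 96.4 kb into the gene (chr16:25779946-25780717), and its level was 188 in Ctrl and 198 in Cispl, against 279 in Oxali, 270 in IFNγ and 258 in the combination. The gene carried distal accessibility but no called promoter at this depth.

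At the luminal genes, Foxa1 had a start site region (chr12:57545301-57547245) with levels of 1197 in Ctrl and 1137 in Oxali, above 1018 in IFNγ, 999 in Cispl and 933 in the combination. With Oxali its ratio to Ctrl, scaled by depth alone, was 0.95, with an interval of 0.87 to 1.03 that includes no difference. Gata3 had 10 start site regions, because 6 transcript starts are annotated over the gene. The highest (chr2:9879131-9879963), at an internal start, had levels of 1675, 1053, 864, 1200 and 1025, with a ratio of 0.52 for Cispl (0.48 to 0.56). The region at the outer Gata3 start (chr2:9888860-9890156) was less different between lists, at 1264, 1098, 951, 1095 and 1070. Gata2 had no comparable promoter signal. Its start site region that was present in all lists (chr6:88198071-88199087), at an internal start 4.4 kb into the gene, had levels of 75, 94.8, 64.4, 51.7 and 73.4, and each interval of the ratio to Ctrl included 1. Another region (chr6:88204093-88204292), at an internal start further into the gene, was called only in Oxali at 40.9 and in the combination at 34.8. The outer Gata2 start had its closest region 1.6 kb away.

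Among the factors of both layers, the Grhl2 start (chr15:37233726-37235007) had a level of 1766 in Ctrl and 1568 in Oxali, and between 1113 and 1170 in the other 3 lists. An internal Grhl2 start (chr15:37317626-37318693) was lowest in Cispl, with 952, 843, 480, 884 and 796, which is a ratio of 0.50 for Cispl (0.45 to 0.56). The Elf3 start (chr1:135258153-135259548) was at 1025 in Ctrl and 1066 in IFNγ, and below both at 874 in Oxali, 794 in Cispl and 758 in Oxali + IFNγ. Ehf showed opposite patterns at its starts. The internal start (chr2:103289486-103289993) was at 593, 552, 467, 404 and 558, whereas a weaker region near the outer start (chr2:103302175-103302478) was lowest in Ctrl, at 58, 117, 79.4, 92.1 and 150.

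Lower levels at strong starts were a feature of the whole data set. For the 11 member regions at a start of any gene with a Ctrl level of 500 or more, a limit chosen after the data were seen, the median log2 ratio was −0.20 with Oxali (−0.48 over all such regions), −0.58 with Cispl (−0.68), −0.47 with IFNγ (−0.56) and −0.43 in the combination (−0.93). The medians of the strong member starts were thus not below those of strong starts in general. A shift of all levels also matters for the directions. Regions in all 5 lists had a median log2 ratio to Ctrl of 0.15 with Oxali, 0.14 in the combination, 0.07 with Cispl and −0.25 with IFNγ. Relative to this shift the Foxa1 start with IFNγ changed side, from a ratio of 0.85 to 1.01, as did the outer Gata3 start (0.87 to 1.03) and the internal Grhl2 start (0.93 to 1.10), while the Sox9 and Klf5 starts lay below 1 in every treated list, between 0.49 and 0.88. With Oxali the Foxa1 start moved from 0.95 to 0.86, so that whether it differed from Ctrl depends on the scaling.

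**Figure D2:**
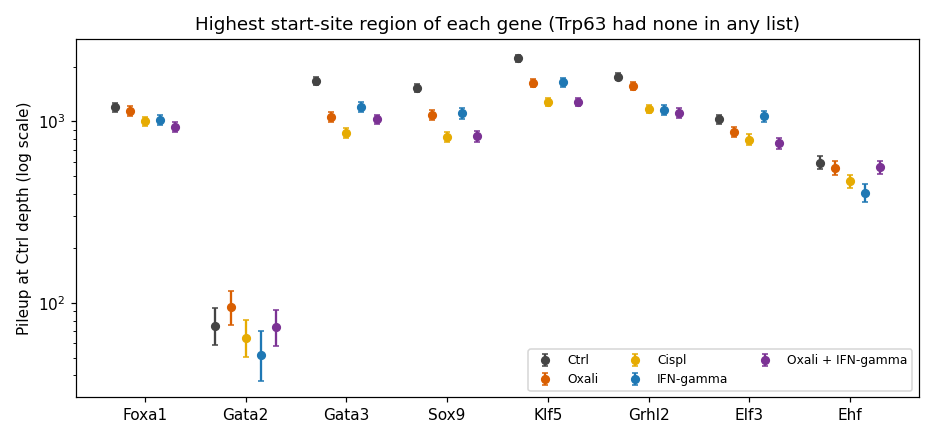
Level (pileup scaled to Ctrl depth, log axis) of the highest start site region of 8 genes in the 5 lists, with 95% Poisson intervals. Ctrl is the highest list at Foxa1, Gata3, Sox9, Klf5, Grhl2 and Ehf, Gata2 lies far below the others at 51.7 to 94.8, and Trp63 had no such region.

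Outside the start sites of the 9 genes, 5 member regions were at least 2-fold above Ctrl in all 3 lists with platinum, and none of them reached 2-fold with IFNγ alone. Only 0.521% of all regions reached 2-fold with IFNγ. The share of all regions that met the condition in all 3 platinum lists was not computed. Gata2 held a pair of the 5 member regions upstream of the gene. The region at −9.0 kb (chr6:88184425-88185049) had a level of 125 in Ctrl and 85.8 in IFNγ, against 317 in Oxali, 275 in Cispl and 308 in the combination, and the ratio was 2.53 with Oxali (2.05 to 3.15). The region at −6.0 kb (chr6:88187598-88188682), which overlaps the noncoding gene Gm38708, had 53, 153, 131, 61.8 and 210, and its ratio in the combination was 3.96 (2.92 to 5.45). In both regions the platinum lists lay well above Ctrl and IFNγ. The next Gata2 region at −4.2 kb was much less different, with 162, 207, 183, 131 and 190.

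Sox9 held a region of this kind 18.7 kb downstream of its start (chr11:112800452-112802057), with 98 in Ctrl and 159 in IFNγ, against 233 in Oxali, 204 in Cispl and 244 in the combination. Ctrl was the lowest list here, whereas it was the highest at the Sox9 start. At Trp63 the region lay 136.6 kb into the gene over a coding exon (chr16:25820090-25820719), with 62, 158, 146, 58 and 133. The Elf3 region at −9.7 kb (chr1:135267888-135268824) had 144, 365, 291, 109 and 341. It lies within 1 kb of a start of the neighbouring gene Rnpep, an aminopeptidase, and so cannot be assigned to Elf3. Relative to the shift of all regions given above, the ratios of these 5 regions were between 1.93 and 3.59 in the platinum lists. The Sox9 region with IFNγ alone was then also at 1.93, near its ratio of 1.98 with Cispl.

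The bases around the summits of 4 of these regions are shown because they carry these differences, and those of a Foxa1 region because it was the highest distal one of the 9 genes. They are the reference sequence of the plus strand (GRCm38.p6, C57BL/6J), 121 bases each, with matches to the motifs named below in capitals.
Gata2 −9.0 kb, chr6:88184819-88184939: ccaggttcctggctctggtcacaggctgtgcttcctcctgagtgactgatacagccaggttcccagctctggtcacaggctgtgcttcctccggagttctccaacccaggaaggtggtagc
Gata2 −6.0 kb, chr6:88187866-88187986: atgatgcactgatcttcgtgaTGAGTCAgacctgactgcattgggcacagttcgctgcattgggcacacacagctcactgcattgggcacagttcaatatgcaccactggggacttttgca
Sox9 +18.7 kb, chr11:112800841-112800961: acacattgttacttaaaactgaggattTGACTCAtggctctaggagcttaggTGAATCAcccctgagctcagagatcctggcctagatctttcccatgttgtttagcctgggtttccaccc
Elf3 −9.7 kb, chr1:135268212-135268332: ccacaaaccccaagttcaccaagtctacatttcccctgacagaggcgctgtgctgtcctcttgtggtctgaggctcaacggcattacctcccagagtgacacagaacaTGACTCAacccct
Foxa1 +12.0 kb, chr12:57534880-57535000: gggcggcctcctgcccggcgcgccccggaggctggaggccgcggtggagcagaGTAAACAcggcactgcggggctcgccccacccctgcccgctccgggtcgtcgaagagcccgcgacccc

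The capitals mark TGANTCA, the AP-1 motif of Fos and Jun dimers, in the Gata2 −6.0 kb, Sox9 and Elf3 sequences, with a pair of matches at Sox9. In the Foxa1 sequence they mark TGTTTAC, the forkhead motif bound by Foxa1 and related factors, on the minus strand. The Gata2 −9.0 kb sequence had no match to the 10 motifs searched. Nor did the 121 bases around the summit of the Trp63 region, which are not printed. Within 201 bases around the summit, on either strand, TGANTCA was found in 39 member regions (25.5%) and in 21.3% of all regions, which makes a match common. By class it was found in 9 luminal, 9 basal and 21 regions of both layers. TGTTTAC was found in 8 member regions (5.23%), 6 of them at luminal genes, against 4.41% of all. The GATA motif AGATAA was found in 4 (2.61%) against 6.48% of all, and the grainyhead motif AACCNGTT in 4 (2.61%) against 1.56%. The palindromic motif of the androgen and glucocorticoid receptors was found in 9 (5.88%) against 2.49%. The p53 family motif, read as CATG, any 6 bases and CATG again, was in no member region and in 0.776% of all.

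**Figure D3:**
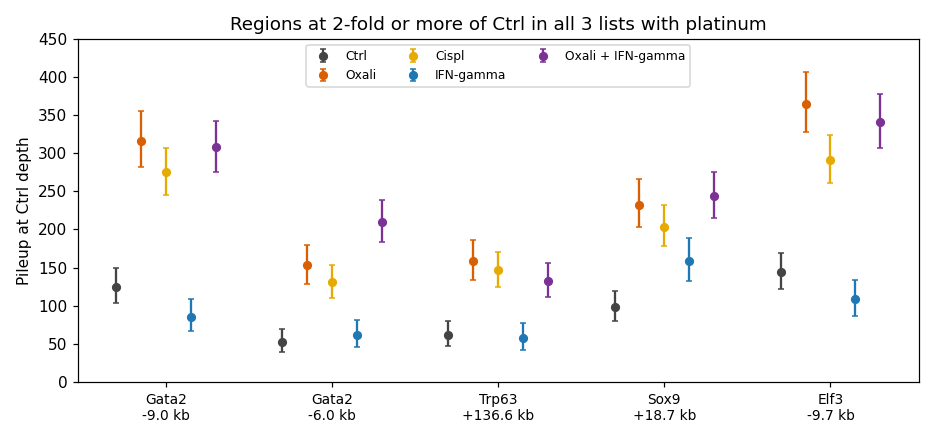
Level (pileup scaled to Ctrl depth, linear axis from 0) of the 5 regions that were at least 2-fold above Ctrl in all 3 lists with platinum, with 95% Poisson intervals and the distance from the outermost start of the gene. In each region the Oxali, Cispl and Oxali + IFNγ points lie above the Ctrl point, and at the Gata2 −9.0 kb region they span 275 to 317 against 125 in Ctrl.

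Counted over the regions present in both lists, 8 of 81 member regions were at least 2-fold higher with Oxali (14.6% of all regions), 7 of 79 with Cispl (11.3% of all) and 11 of 81 in the combination (16.1% of all). With IFNγ alone it was 0 of 74 (0.521% of all). These shares of the members lay near or under the background. Of the 8 with Oxali, 2 were at luminal genes, 3 at basal genes and 3 at genes of both layers. Regions at least 2-fold lower were absent with Oxali (0.746% of all), Cispl (1.7% of all) and Oxali + IFNγ (5.66% of all). With IFNγ there was 1 such region (2.68% of all), 19.6 kb downstream of the Foxa1 start, at 42.9 against 97 in Ctrl, a ratio of 0.44 (0.29 to 0.66). These counts hold for scaling by depth alone. Relative to the shift of all regions, 5 member regions were at least 2-fold higher with Oxali (11% of all regions), 5 with Cispl (9.74%), 8 in the combination (12.7%) and 4 of 74 with IFNγ (2.04%). After the shift 2 were at least 2-fold lower in each platinum list (1.75% of all with Oxali, 2.64% with Cispl and 7.99% in the combination) and 0 with IFNγ (0.586%), where this Foxa1 region was at 0.53.

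Foxa1 had its highest region not at the start but 12.0 kb downstream (chr12:57534262-57535868), beyond the end of the gene. Its levels were 1718, 1720, 1445, 1013 and 1477. Scaled by depth alone, Oxali was thus level with Ctrl here while IFNγ was lowest. Relative to the shift of all regions, the ratio of this region to Ctrl was 0.90 with Oxali and 0.70 with IFNγ. With IFNγ, 9 of the 11 Foxa1 regions present in both lists lay below Ctrl beyond counting error, and 4 still did when the shift of all regions was taken off. The other 2 lay above Ctrl beyond counting error and were at least 2-fold up after the shift, and 29.9% of all regions were above Ctrl with IFNγ. Ehf also had its strongest region inside the gene, 8.6 kb from the outer start (chr2:103293629-103294969), with 763, 856, 628, 684 and 759.

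**Figure D4:**
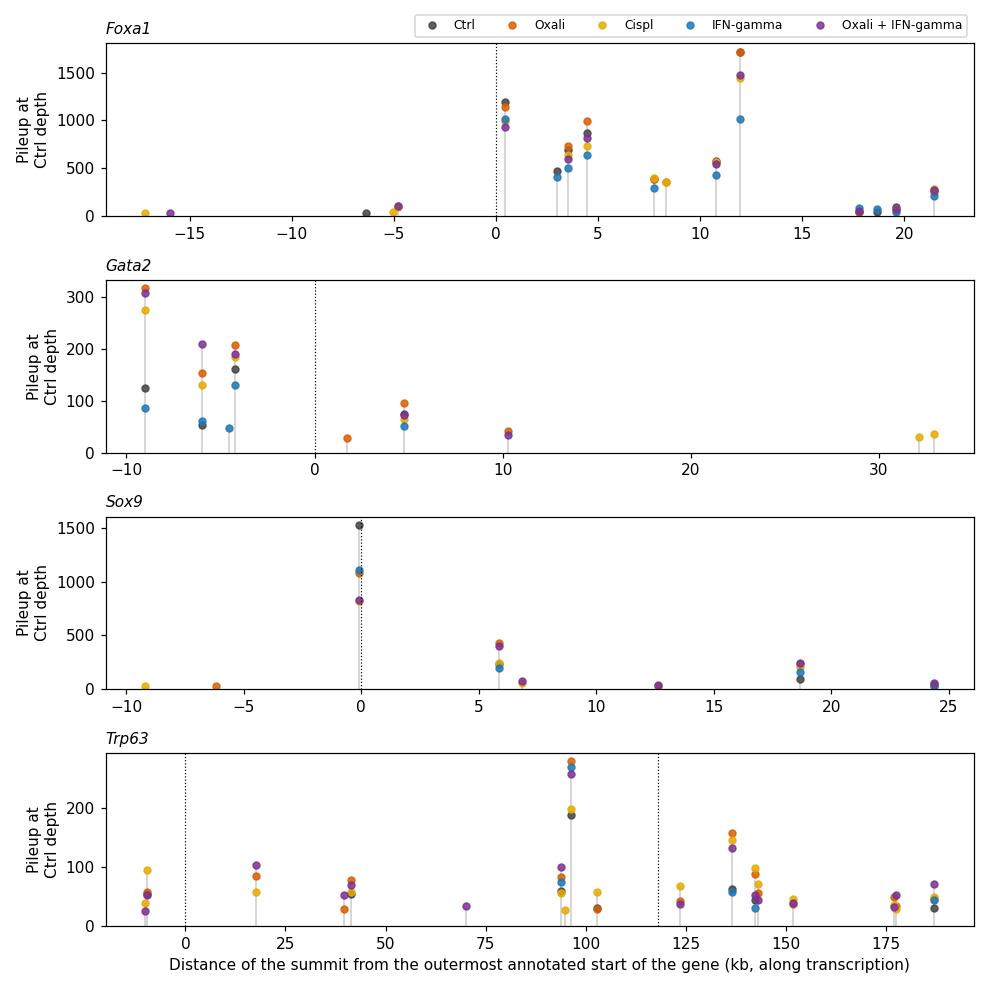
Level (pileup scaled to Ctrl depth) of each deposited region at Foxa1, Gata2, Sox9 and Trp63 against the distance of its summit from the outermost start, in kb along transcription, with 1 point per list. Grey lines join a region to the axis and dotted lines mark the outer start and, for Trp63, the inner start 118 kb into the gene. The Gata2 points with platinum lie highest upstream of the start, and no Trp63 region stands at either dotted line.

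Next, regions present on only 1 side were counted. A region was gained when it had a q-value of at most 0.01 in the treated list and no deposited region of any strength in Ctrl. It was lost in the mirror case. With Oxali, gains made up 22 of 153 member regions (14.4%, against 22.1% of all regions), with Cispl 40 (26.1% against 28.9%) and in the combination 29 (19.0% against 30.3%). IFNγ alone gave 10 (6.54% against 5.94%). These counts depend on the length of the lists, since with an equal number of regions taken from each list the gains were 10 with Oxali, 11 with Cispl, 10 in the combination and 11 with IFNγ. The basal genes had the larger shares with platinum, with 29.4% of their 34 regions for Oxali and 38.2% for both Cispl and the combination, and no gained region with IFNγ. The luminal genes had 11.8% of 51 regions for Oxali, 19.6% for Cispl, 13.7% for the combination and 5.88% for IFNγ. At Trp63 alone, 7 of 18 regions were gained with Oxali, 8 in both Cispl and the combination, and 0 with IFNγ. The Trp63 share is above the background for all regions with each platinum treatment, but regions of 1 gene share a locus and are not replicates.

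Most gained regions were weak. The uncalled Ctrl list could have held a certain level without a deposited region, and the ratio of the treated level to it is the smallest fold that the lists allow, counting error aside. This ratio reached 2 at 6 of the 22 regions gained with Oxali, 6 of the 40 with Cispl, 10 of the 29 in the combination and 2 of the 10 with IFNγ. Trp63 held 4 of them in each of the platinum lists. The clearest, chosen after its values were seen, lay in a Trp63 intron 17.7 kb from the outer start (chr16:25701340-25701836). It was absent from the Ctrl and IFNγ lists, its level was 84 in Oxali, 58.2 in Cispl and 102 in the combination, and these are at least 4.0, 2.77 and 4.88 times the Ctrl limit of 21.

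The gained regions of the highest level lay beside strong regions of Ctrl, where the local background is high. In a Gata3 intron, a region (chr2:9880962-9881468) 378 bp from a Ctrl region had 407 in Oxali, 318 in Cispl and 404 in the combination, which is at least 1.62, 1.60 and 1.80 times the level that Ctrl could hold. Its neighbour (chr2:9882403-9882629) had 393 in Oxali, 308 in IFNγ and 381 in the combination. A Foxa1 region 180 bp from a Ctrl region (chr12:57538474-57538906) had 356 in Oxali and 358 in Cispl, at least 1.11 and 1.24 times the limit. Such small bounds do not separate a gain from a changed border of a called region. At Klf5 a region at −2.9 kb (chr14:99295754-99295927), 2309 bp from any Ctrl region, had 322 in Oxali, 216 in Cispl and 314 in the combination, which is at least 1.91, 1.58 and 2.14 times the limit. With IFNγ the highest gained regions were the Gata3 neighbour above, a Grhl2 intron region (chr15:37320458-37320624) at 240 and a Gata3 region (chr2:9887134-9887283) at 223.

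Lost regions were fewer than gained ones with platinum but not with IFNγ, with 8 for Oxali (4.75% of all regions were lost), 9 for Cispl (3.21%), 9 for the combination (4.06%) and 17 for IFNγ (8.08%). Luminal genes held 5 in each comparison, whereas basal genes held 3 with IFNγ, 1 in the combination and 0 with either drug alone. The highest was a Foxa1 intron region (chr12:57543835-57543986) at 476 in Ctrl and 413 in IFNγ, which was absent from the 3 platinum lists, where a level of up to 328 could have gone uncalled. A region in an Elf3 exon (chr1:135256443-135256602) was in the Ctrl list only, at 155, with bounds of 1.72 to 1.85. With IFNγ, a region 2.5 kb upstream of Elf3 (chr1:135260988-135261230) was absent, while its level was 196 in Ctrl and 230 to 249 in the platinum lists. Ctrl was at least 2.22 times the IFNγ limit there. A Grhl2 region at an internal start (chr15:37318738-37319305), at 156 in Ctrl, was also absent with IFNγ, but its bound was only 1.30 and an IFNγ region lay 104 bp away. A region 7.8 kb downstream of the Foxa1 start (chr12:57539070-57539260), at 390 in Ctrl, was absent in the combination, with a bound of only 1.25. The remaining lost regions among the 3 highest of a treatment were weak and both at Gata3. That at chr2:9858369-9858561 was at 68 in Ctrl and absent in Oxali, IFNγ and the combination. That at chr2:9854807-9855658 was at 59 in Ctrl and absent in Oxali and Cispl.

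Finally, luminal and basal factors were set side by side over the regions present in both lists of a comparison. With Oxali the median log2 ratio to Ctrl was 0.05 over 27 luminal regions and 0.49 over 16 basal regions, beside 0.19 for all regions. With Cispl it was 0.02 and 0.14, beside 0.13. With IFNγ it was −0.40 over 28 luminal and 0.28 over 13 basal regions, beside −0.23, but the basal value was −0.15 over 8 regions in windows of 5 kb. In the combination it was −0.04 over 27 and 0.35 over 15, beside 0.18. Over these regions the basal median was the higher one in each comparison, but with platinum the order was the reverse among regions at the starts of the genes themselves. There the 2 basal regions, the Sox9 and Klf5 starts, had medians of −0.47, −0.85, −0.45 and −0.84 (Oxali, Cispl, IFNγ, combination), against −0.01, −0.24, −0.48 and −0.23 over 7 or 8 luminal regions. Such starts made up 8 of the 27 luminal but 2 of the 16 basal regions with Oxali. Elsewhere the luminal medians were 0.05, 0.05, −0.40 and −0.02 and the basal medians 0.53, 0.42, 0.29 and 0.46, in the same order. At Ctrl levels under 500 the luminal medians were 0.34, 0.19, −0.23 and 0.25, beside the same basal values, so that the difference was smaller than over all regions of the classes except with Cispl. All regions of the series with a Ctrl level under 500 had medians of 0.31, 0.26, −0.17 and 0.32. At any Ctrl level, genes of both layers had 0.22, −0.18, 0.03 and 0.30. Relative to the shift of all regions in all 5 lists, the luminal medians were −0.10, −0.05, −0.15 and −0.18 and the basal medians 0.35, 0.07, 0.53 and 0.21, so the sign of the luminal median with Oxali and with Cispl depends on the scaling. Each class is 3 genes, the Ctrl list is common to all 4 comparisons, and no test of the class difference was possible.

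The class medians cover unlike regions. With Oxali, 11 of 16 basal regions were above Ctrl, but the Sox9 and Klf5 starts were the lowest of them. Of the luminal genes, Gata2 had 4 of 4 regions above Ctrl with Oxali, with a median of 0.85, while Foxa1 had 4 of 9, with a median of −0.03. After the shift was taken off, Gata2 still had 4 of 4 above, with a median of 0.70. Foxa1 then had 1 of 9 above, with a median of −0.17 and 5 regions below beyond counting error. With IFNγ, 23 of 28 luminal regions lay below Ctrl, and 16 did so after the shift was taken off, while 29.9% of all regions were above Ctrl in that comparison. Trp63 had 7 of 8 regions above Ctrl with Oxali, 7 of 8 with Cispl and 6 of 7 with Oxali + IFNγ, with medians of 0.53, 0.75 and 0.46. Of these, 3, 5 and 4 were above beyond counting error, and 61.6%, 58.0% and 59.9% of all regions lay above Ctrl. Klf5 went the other way with Oxali + IFNγ, where 4 of 4 regions were below Ctrl and 1 of them beyond counting error.

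**Figure D5:**
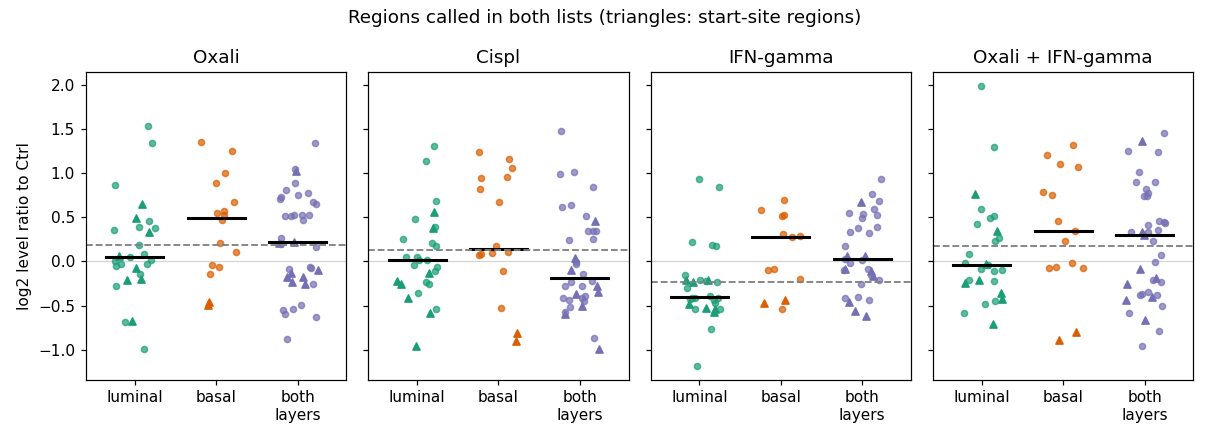
Log2 ratio of level to Ctrl for each member region present in both lists, by class and treatment. Points are regions (triangles are start site regions), black bars are class medians and the dashed line is the median of all regions. With IFNγ the luminal bar lies at −0.40 and the basal bar at 0.28, and the Sox9 and Klf5 starts are the triangles below 0 in the basal column.

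Oxaliplatin and cisplatin, platinum drugs that differ in the carrier and leaving groups around the metal, were given at the same concentration and time, and their lists can be set against each other without Ctrl. Of 92 member regions present in both, 58 were lower with Cispl, 37 of them beyond counting error, and 8 were higher beyond counting error. The share higher with Cispl was 37.0%, near the 40.1% of all regions. The median log2 ratio of Cispl to Oxali was −0.18, beside −0.10 for all regions. At Grhl2, 17 of 26 regions were below Oxali, a share like that over the 9 genes, and at Ehf 7 of 9 were. The Grhl2 region at −17.4 kb (chr15:37215092-37216162) was at 235 with Cispl against 478 with Oxali, a ratio of 0.49 (0.42 to 0.57). An intron region at 91.8 kb (chr15:37324231-37325288) was at 334 against 699, a ratio of 0.48 (0.42 to 0.54). The Ctrl level there was 608. A Grhl2 region at 109.7 kb (chr15:37342292-37343285) had the opposite order, with 156 against 79.7, a ratio of 1.96 (1.49 to 2.61). At Trp63, 7 of 14 regions were higher and 7 lower with Cispl. A region 5.9 kb downstream of the Sox9 start (chr11:112787767-112788942) was at 231, 429, 244, 201 and 399, so that Cispl lay near Ctrl and both lists with oxaliplatin above it.

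The combination was next set against Oxali. Of 97 member regions present in both, 0 differed 2-fold (0.286% of all regions were 2-fold higher and 0.268% lower), and the median log2 ratio was −0.05, beside −0.01 for all regions. Lower levels beyond counting error with the combination were found at 18 regions, among them the starts of Foxa1 (ratio 0.82, 0.75 to 0.90), Sox9 (0.76, 0.70 to 0.84), Klf5 (0.79, 0.73 to 0.85) and Grhl2 (0.71, 0.66 to 0.77). Higher levels were found at 6 regions, with the Gata2 −6.0 kb region at 1.37 (1.11 to 1.71) and a Grhl2 intron region at 47.7 kb at 1.66 (1.18 to 2.37). In the combination 41.2% of the shared member regions were higher, beside 49.0% of all regions. The shares beyond counting error were not computed over all regions. Strong starts in general had a median log2 ratio to Ctrl of −0.48 with Oxali and −0.93 in the combination, as given above. Against IFNγ alone, 6 of 72 regions were at least 2-fold higher in the combination (19.3% of all regions), and Gata2 had all of its 4 shared regions higher, with a median log2 ratio of 1.15, where 69.3% of all regions were higher, with a median of 0.33.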

How the data were processed

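The authors trimmed reads with cutadapt, aligned them to mm10 with Bowtie2 2.2.8, filtered out poorly mapped, duplicate and mitochondrial alignments, joined the 2 libraries per group, and used MACS2 2.1.0 with no control library, dropping blacklisted peaks. The reference is C57BL/6J, the line FVB/NJ, and copy number was not corrected. In the deposited lists the fold is the ratio of pileup plus 1 to local background plus 1, and the −log10 p-value is the Poisson value of that pileup, with the −log10 q-value as a score adjusted within the list. Pileup and background were solved from them (100% of peaks within 0.01) and divided by the genome background of each list. Lists reach a −log10 p of 2.00, but Cispl ends at 2.99, so weak regions are missing there. Intervals of the 5 lists with q of at most 0.01 were merged where they overlapped by 1 bp (python 3.11.15, scipy 1.17.1). Level intervals are exact Poisson and ratio intervals exact binomial (95%). Per gene the start site region and the highest Ctrl region are named, and per treatment the 3 highest gained and lost regions; any further region was picked with its values in view. Members, classes and lists were chosen with earlier results of these data known. The solving step was tested on simulated data. Results for 2 marker genes are not reported here.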

Additional observations from a re-analysis of the deposited data

How the results depend on the processing

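No paired analysis was possible because each list holds the joined libraries of a group, and leaving out a replicate was not run for the same reason. The settings that can change the class difference (windows of 5 and 50 kb, the mean over summits and other class membership) kept the basal median above the luminal one, by 0.33 to 0.52 with Oxali, 0.31 to 0.79 in the combination, 0.12 to 0.73 with Cispl and 0.26 to 0.72 with IFNγ (log2), the value of the report included. These ranges leave out the split by start site and Ctrl level given in the report, where the difference was the reverse at the genes' own starts with platinum and, at Ctrl levels under 500, smaller except with Cispl. With windows of 5 kb the basal median with IFNγ changed sign, to −0.15 from 0.28. Gained regions numbered 11 with Cispl and 10 in both lists with oxaliplatin when the same number of regions was taken from each list, and 24 with Cispl at a q-value of 1e-05. With windows of 5 kb the regions gained with IFNγ were 6 and with 50 kb 21. Lost regions at a q-value of 1e-05 were 4 in both lists with oxaliplatin, 5 with Cispl and 11 with IFNγ. They were 14 with Cispl over every deposited region, 5 with Oxali and 4 with Cispl in windows of 5 kb, and 15 with Oxali, 26 with IFNγ and 14 in the combination in windows of 50 kb. Scaling by the median of regions in all 5 lists gave luminal medians of −0.10 with Oxali and −0.15 with IFNγ and a basal median of 0.53 with IFNγ; counting Grhl2, Elf3 and Ehf as luminal gave −0.16 with IFNγ. Under the scaling by regions in all 5 lists the Foxa1 start with IFNγ reversed to 0.016 (log2). With the mean over summits as the level, directions reversed for the Foxa1 start with IFNγ (0.068), the Grhl2 start (0.13) and the Elf3 start (0.062) with Oxali, and the Ehf intron region with Cispl (0.11). For these changes the cause was not tested. At the genome background, the level that a list could hold without a deposited region was between 20.7 and 23.8, highest in Cispl, and it was higher beside strong regions.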
